A study of Solanum lycopersicum with 12 samples.

Results

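Whole fruits of *VvSUC12*-OE tomato were compared with fruits of the wild type (WT) across all genes and annotation classes. The comparison took the 3 *VvSUC12*-OE and the 3 WT libraries, 6 of the 12 libraries of the series, as their labels give them, and 18900 of the 22827 genes in the table had enough reads to be tested. All plants were *Solanum lycopersicum* cv. Micro-Tom, and fruits were taken whole at 5 days post-anthesis (DPA) with the young seeds inside. *VvSUC12*-OE plants carried the grape (*Vitis vinifera*) sucrose transporter gene *VvSUC12* behind the constitutive 35S promoter, brought in with *Agrobacterium* and selected on hygromycin, and the WT plants carried no transgene. The libraries came from the T1 generation of 1 line, *VvSUC12*-OE line 5, so the transgene and its line cannot be told apart. The other transgenic groups, used here only for side-by-side values and tests of the difference between lines, were *VvSUC11*-OE fruits (T1, line 5) and *VvSUC27*-OE fruits (T0, line 5), with 3 libraries each. The transgene itself was not analysed here.

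Sucrose transporters of this family move sucrose together with protons across membranes. They load it into the phloem of leaves and take it up where the phloem ends, in sinks such as fruits. A tomato fruit a few days after anthesis is a green sink in which the pericarp cells divide, while the seeds inside form an endosperm and a young embryo. Its transcripts therefore come from pericarp, placenta, vascular tissue and seeds together, and in such bulk samples fewer cells of a type and less RNA per cell cannot be told apart.

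The values are FPKM (fragments per kilobase of transcript, relative to library size) for levels and the deposited whole-number values, taken here as scaled counts, for tests. The log2 fold change (log2FC) is the limma estimate on log2(scaled count + 1), *VvSUC12*-OE minus WT, with its standard error (SE) in parentheses. Where 3 FPKM stand against 3, those of *VvSUC12*-OE replicates 1 to 3 come first, and "from" and "to" run from the WT to *VvSUC12*-OE libraries. A gene said to rise or fall by a number did so on the log2 scale. Differentially expressed genes (DEGs) had an FDR (Benjamini-Hochberg) below 0.01 and changed by more than 1 on the log2 scale in either direction. Scaled counts summed to between 20530052 and 21229356 in the 6 libraries, the correlation of replicates across genes was 0.991 to 0.992, and 3 counts, the limit for a gene listed at 0, corresponded to a median FPKM of 0.0963 to 0.0987. These limits cover counting error only. The study calls its libraries biological replicates, and p-values measure the spread between these libraries.

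Of the 18900 tested genes, 1626 were DEGs, or 8.6%, with 625 upregulated (3.31%) and 1001 downregulated (5.3%) in *VvSUC12*-OE fruits. Without the fold threshold, 7460 genes (39.5%) passed the FDR, 3433 of them higher and 4027 lower than in the WT, and the median log2FC of all tested genes was -0.01. Scaled counts did not overlap between the groups in 10649 genes (56.3%), and 9 of the 1626 DEGs were among those that overlapped. DEGs were more frequent at low levels. Among genes with a mean of under 10 scaled counts 53.0% were DEGs, against 28.3% between 10 and 50, 14.1% between 50 and 200, 3.33% between 200 and 1000 and 2.56% between 1000 and 5000. A gene with a mean under 10 could pass the filter only with some libraries at 10 or more and others lower. The share of 53.0% is therefore raised by the filter itself, and that between 10 and 50 may be so in part. At most 3 scaled counts were found in all 3 WT libraries for 60 of the DEGs and in all 3 *VvSUC12*-OE libraries for 190. Every tested gene of either kind was a DEG. Such a gene passed the filter only with at least 10 scaled counts in every library of the other group. When testing was limited to means of 50 scaled counts or more, 897 DEGs were called, 354 up and 543 down.

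**Figure D1:**
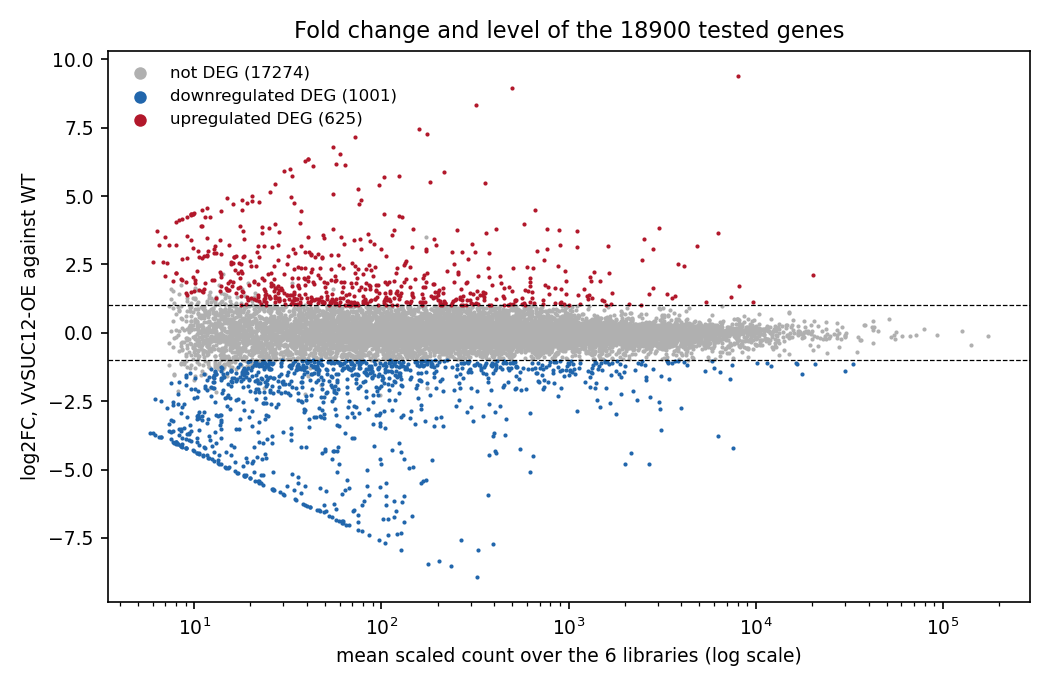
Fold change against level for the 18900 genes tested between *VvSUC12*-OE and WT fruits, 1 point per gene. The x axis is the mean scaled count of the 6 libraries on a log scale, the y axis the log2FC, and dashed lines mark 1 and -1. The 625 upregulated (red) and 1001 downregulated (blue) DEGs lie mostly at low levels, and the slanted lower edge on the left is formed by genes at or near 0 counts in *VvSUC12*-OE fruits.

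DEGs were counted in 51 lists of genes made from words of the deposited annotation, beside the background of 8.6% over all tested genes. The lists held 653 of the DEGs, and 973 were in none. The largest share was found for the small heat shock proteins, of which 18 of 25 tested genes were upregulated (72.0%) and 0 downregulated. Defensin-like and lipid-transfer proteins followed with 27 of 46 (58.7%), 10 up and 17 down. Proteinase inhibitors had 12 of 25 (48.0%), with 9 down, and genes of ACC synthesis and oxidation had 9 of 21 (42.9%), with 6 up. The latter list rests on words, and the upregulated genes gene10035, gene10036, gene23085 and gene23086 are annotated only as ACC oxidase homologs. Whether these homologs act in ethylene synthesis was not tested. At the other end stood ribosomal proteins, with 1 DEG among 300 tested genes (0.333%). Because DEGs were more frequent at low levels, a share also depends on the levels of the genes in a list, and shares were not matched for level.

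**Figure D2:**
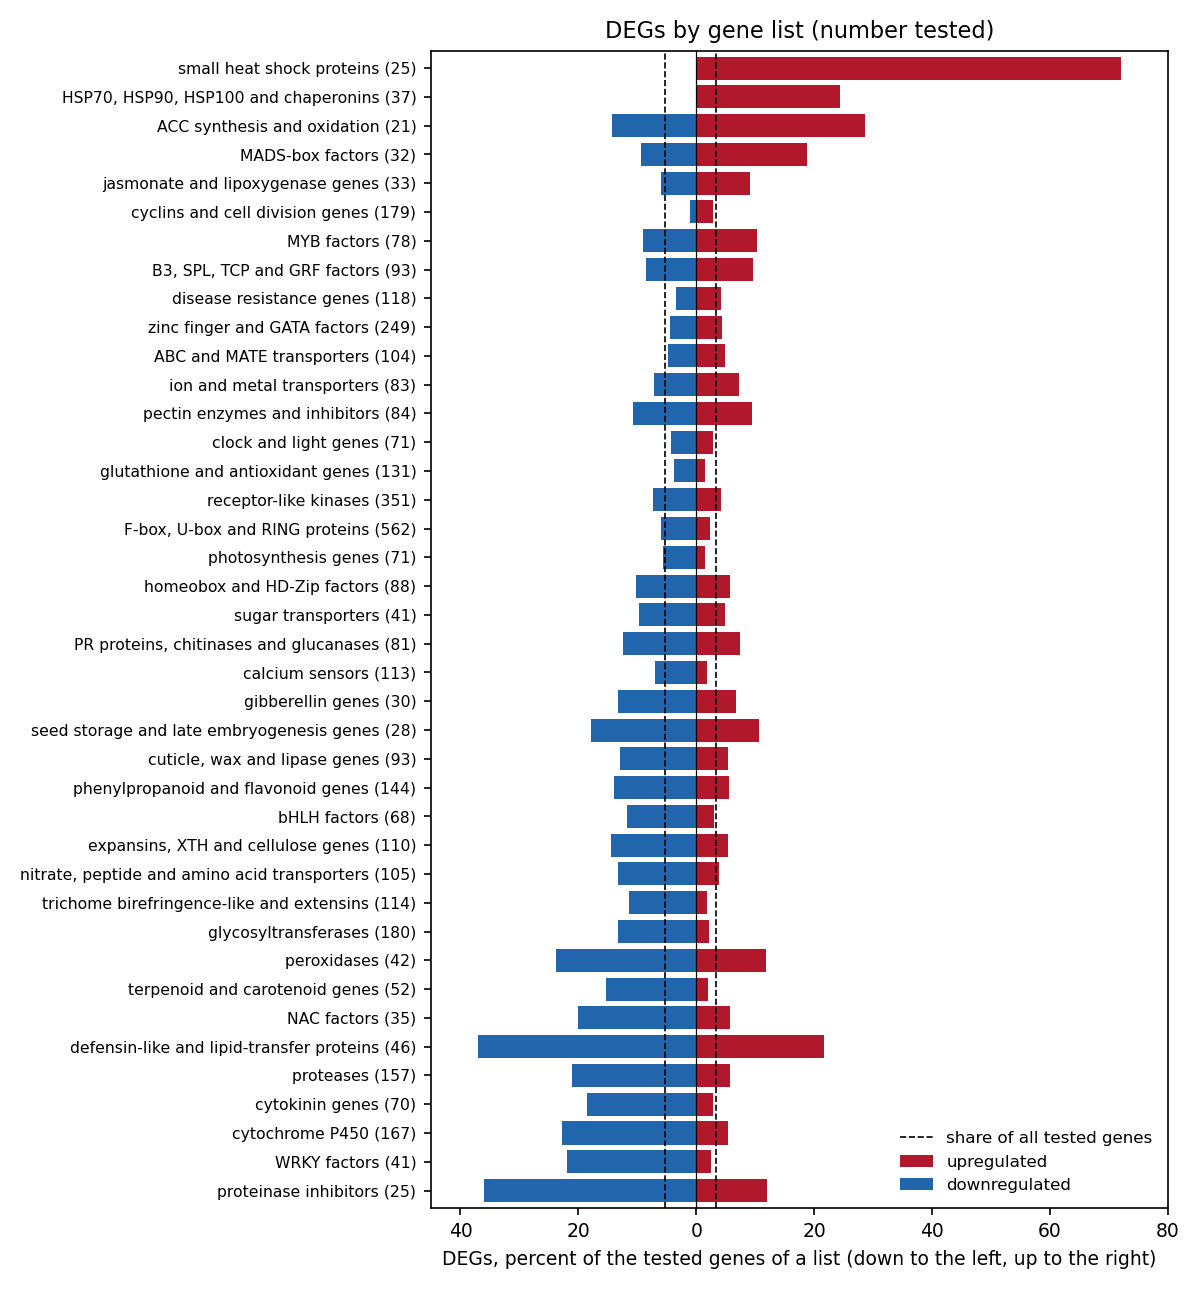
DEGs as a percentage of the tested genes of each list with at least 5 DEGs, upregulated to the right and downregulated to the left. Dashed lines mark the shares of all tested genes, 3.31% up and 5.3% down. Small heat shock proteins reach 72.0% up with no bar to the left, whereas proteinase inhibitors, WRKY factors, cytochrome P450 and cytokinin genes have their longer bar on the left.

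All chaperone DEGs were higher in *VvSUC12*-OE fruits than in the WT. Small heat shock proteins bind unfolding proteins without ATP and keep them soluble, and HSP70, HSP90 and HSP100 proteins refold or disaggregate them with ATP. Among the 25 small heat shock protein genes tested, of 29 annotated, 23 had a positive log2FC, with a median of 1.61. The summed FPKM of the list was 1213 to 1338 in *VvSUC12*-OE libraries and 417 to 440.4 in WT libraries. Leaving out a library in turn gave 17 to 18 upregulated genes, and 16 of 19 genes averaging 50 scaled counts or more were upregulated. The members that changed belonged to several compartments. For gene20842, annotated as mitochondrial, the FPKM was 94.3, 108 and 105 in the *VvSUC12*-OE libraries and 7.35, 7.67 and 5.58 in the WT. Its log2FC was 3.80 (SE 0.10), with the 3 libraries of each group far apart. Another mitochondrial member of 26.5 kDa, gene28801, had a mean FPKM of 41.4 ± 4.06 (SD, n = 3) against 3.16 ± 0.651 in the WT, and 11.6 and 13.9 in *VvSUC11*-OE and *VvSUC27*-OE fruits. Cytosolic class II members gene19995 and gene19990 rose with a log2FC of 3.74 and 4.23. The most abundant member, the class I gene gene16555, was not a DEG. Its mean FPKM was 319 against 191 in the WT, a log2FC of 0.63. Class I genes include neighbouring copies, among which the counting of the authors could have split reads.

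Of the 37 tested genes of HSP70, HSP90, HSP100 and chaperonin proteins, 9 were upregulated and 0 downregulated, and their median log2FC was 0.26. The heat shock cognate gene gene27182 had FPKM of 59.4, 66.1 and 70.4 in *VvSUC12*-OE fruits against 6.36, 7.26 and 7.69 in the WT. With a log2FC of 3.18 (SE 0.07) and an adjusted p of 7e-17 (limma), it changed most in its list. ClpB1, gene8899, is the HSP100 disaggregase that takes aggregates apart. It reached 81.2, 88.1 and 88.9 in *VvSUC12*-OE libraries and 14.7, 15.3 and 14.7 in WT libraries, and its mean was 47.5 in *VvSUC11*-OE and 55.9 in *VvSUC27*-OE fruits. An HSP83-like gene of the HSP90 family, gene14852, stood at a mean of 92.1 FPKM against 10.6, and an HSP70 gene, gene10098, at 94.1 against 14.5. The list as a whole moved far less than these members. Its summed FPKM was 5936 to 6057 in *VvSUC12*-OE and 5484 to 5537 in WT libraries. Of the DnaJ and co-chaperone genes, which pass clients to HSP70, 4 of 68 were upregulated (5.88%, against 3.31% of all tested genes). A dnaJ homolog, gene27547, had 71.4, 77.5 and 77.3 FPKM in *VvSUC12*-OE fruits against 15.1, 13.5 and 15.8 in the WT, and was also higher than in *VvSUC11*-OE (log2FC 1.44) and *VvSUC27*-OE fruits (1.03). Heat stress transcription factors switch these genes on, and 3 of 22 were upregulated, with 0 downregulated. Factor A-7a, gene22594, had a mean FPKM of 21.2 against 4.82 (log2FC 2.09), and HSF24, gene6324, of 42.5 against 20.3 (log2FC 1.03). The temperature and hour of harvest of the groups were not analysed here.

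**Figure D3:**
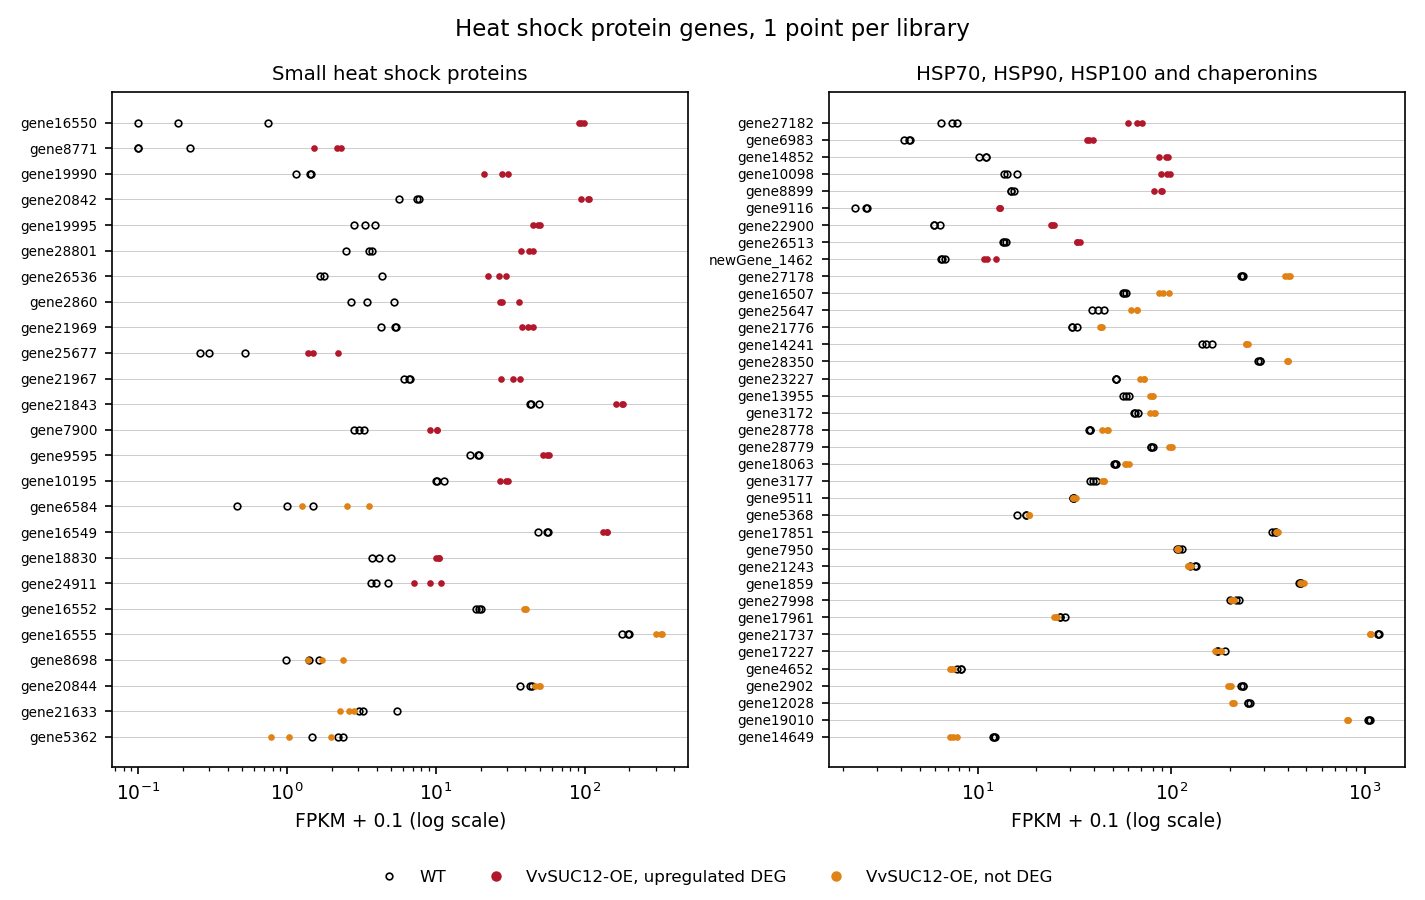
FPKM + 0.1 on a log scale for the 25 small heat shock protein genes (left) and the 37 genes of HSP70, HSP90, HSP100 and chaperonin proteins (right), 1 point per library, ordered by log2FC. Open circles are WT libraries, red points *VvSUC12*-OE libraries of upregulated DEGs and orange points those of genes that were not DEGs. On the left 18 genes are red, and on the right 9, while the most abundant genes of the right panel stay near the WT.

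More protease genes fell than rose in *VvSUC12*-OE fruits. Of 157 tested genes for subtilisin-like, aspartic, cysteine and serine carboxypeptidase-type proteases, 33 were downregulated (21.0%, against 5.3% of all tested genes) and 9 upregulated. Their median log2FC was -0.16. When a mean of 50 scaled counts or more was required, 21 of 128 were downregulated and 4 upregulated. The most abundant of the downregulated genes was a subtilisin-like protease, gene19356, a serine protease of the cell wall space. Its FPKM was 18.1, 13.6 and 19.2 in *VvSUC12*-OE libraries and 363, 326 and 258 in WT libraries, a log2FC of -4.23 (SE 0.11, adjusted p = 6.45e-16, limma). The mean was 0.0424 in *VvSUC11*-OE and 1.65 in *VvSUC27*-OE fruits, so *VvSUC12*-OE fruits lay between the WT and both other lines, at least 254-fold above *VvSUC11*-OE, where no library exceeded 2 scaled counts, and with a log2FC of 3.33 against *VvSUC27*-OE.

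Vacuolar-processing enzymes are cysteine proteases that cut other vacuolar proteins after asparagine, among them seed storage proteins. Their genes moved in both directions. The gamma isozyme gene20117 had 5.48, 4.87 and 5.9 FPKM in *VvSUC12*-OE fruits against 171, 157 and 117 in the WT, with a log2FC of -4.78 (SE 0.10). Its neighbour gene20116 read 17.9, 17.6 and 20 against 253, 232 and 171, and both were close to 0 in *VvSUC11*-OE fruits. A further member, gene20101, had 53.8, 51.1 and 50.8 against 156, 159.9 and 183, a smaller fall (log2FC -1.70), and a mean of 130.5 in *VvSUC11*-OE fruits. In contrast, gene20110 was at 2.83, 3.1 and 3.57 in *VvSUC12*-OE fruits against 0, 0.0372 and 0 in the WT, at least 28.6-fold higher. A beta isozyme, gene20886, rose with a log2FC of 2.45 at a mean of 0.993 FPKM. Metacaspase-3, gene3086, another cysteine protease, read 2.65, 2.64 and 3.3 against 0.521, 0.645 and 0.509.

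Other proteases also fell. The aspartic proteinase CDR1-like gene gene20476 had 8.68, 7.18 and 10.9 FPKM against 209, 192 and 146 in the WT (log2FC -4.38), while its mean was 0 in *VvSUC11*-OE and 0.379 in *VvSUC27*-OE fruits. Serine carboxypeptidases remove residues from the C-terminus of proteins, and some act as acyltransferases. The II-3-like gene gene3398 read 23.8, 22.1 and 28.2 against 197, 169 and 142, and serine carboxypeptidase-like 20, gene16700, 19.6, 21.9 and 21.6 against 116, 100.2 and 82.9. Of 35 tested genes with the serine carboxypeptidase activity term, 9 were downregulated and 1, gene14683, upregulated, the latter at least 21.4-fold. A further subtilisin-like gene, gene6487, fell by 2.75 on the log2 scale, and a vignain-like cysteine protease of the papain family, gene8564, by 2.86. Of 19 genes with the propeptide inhibitor domain I29 of such cathepsin-type proteases, 6 were downregulated and 0 upregulated. WT replicate 3 was the lowest of the WT libraries for gene19356, gene20116, gene20117, gene20476, gene3398, gene6487, gene16700 and gene8564, but lay above all *VvSUC12*-OE libraries for each of them. An aspartic protease annotated with guard cells, gene29800, moved the opposite way, from 0 in all WT libraries to 2.89, 2.91 and 2.76 FPKM.

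Proteinase inhibitors, which plants use against the digestive proteases of insects and for control of their own, also fell more often than they rose, with 9 of 25 downregulated and 3 upregulated. Wound-induced proteinase inhibitor 1 was represented by 4 neighbouring genes, gene23057 to gene23060, which were all downregulated. The first of them, gene23057, had 4.9, 6.15 and 6.46 FPKM in *VvSUC12*-OE libraries and 49, 48.9 and 58.2 in WT libraries (log2FC -3.32), and its mean was 238 in *VvSUC27*-OE fruits. These copies are alike, and the split of reads among them is uncertain. The most abundant downregulated inhibitor, the cysteine protease inhibitor 10-like gene gene8430, read 858, 901 and 795 against 2304, 2230.0 and 2212. Type-2 inhibitor TR8, gene26574, rose from 24, 24.7 and 22.5 to 131, 110.3 and 117, still below its mean of 543 in *VvSUC11*-OE and 350.5 in *VvSUC27*-OE fruits.

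Defensins and lipid-transfer proteins are small secreted proteins rich in cysteine, the former known for antimicrobial activity and the latter for carrying lipids to the cuticle and cell wall. Some of them were among the most abundant transcripts of the fruit, and they changed in both directions. A defensin gene, gene17121, had the highest FPKM of all upregulated DEGs with an informative annotation, 8047, 8019.6 and 8403 in *VvSUC12*-OE libraries and 1586, 1594 and 1713 in WT libraries. Its log2FC was 2.13 (SE 0.04, adjusted p = 2.57e-18, limma). The adjoining gene gene17122, defensin-like protein P322, read 1600.4, 1614 and 1689 against 161, 167 and 159 (log2FC 3.18). Their means were 2223 and 234 in *VvSUC11*-OE fruits, both lower than in *VvSUC12*-OE fruits (log2FC 1.83 and 2.75), and 6620.3 and 2117 in *VvSUC27*-OE fruits. The most abundant gene of the list, the defensin-like gene gene16988, was not a DEG, with a mean of 27292 FPKM against 26898 and a log2FC of -0.13 in the scaled counts. Opposite to these, defensin-like protein 290 (gene12696) fell from 156, 189.7 and 139 to 0.652, 0 and 3.51. Defensin-like protein 155 (gene24773) was at 0, 0 and 1.54 in *VvSUC12*-OE libraries and 63.7, 60.3 and 55.1 in WT libraries, at least 32.9-fold lower.

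Lipid-transfer protein genes with neighbouring numbers did not move as a block. Type 2 gene24836 had 1898, 1794 and 1688 FPKM in *VvSUC12*-OE fruits against 3756, 3246 and 3517 in the WT (log2FC -1.11), and was also lower than in *VvSUC11*-OE (-1.23) and *VvSUC27*-OE fruits (-1.06). Next to it, gene24837 read 1709.7, 1647 and 1568 against 3626, 3251 and 3439, and gene24840 had a mean of 693 against 1478. In the same stretch, gene24838 rose from a mean of 2 to 40.8, gene24841 rose with a log2FC of 1.89, and gene24835, at 2207 against 1407, did not reach the fold threshold. Members of such a family can be alike, and the split of reads among them is uncertain. Elsewhere, the LTP 2-like gene gene7308 rose from 219.9, 218 and 205 to 728, 683 and 738, and a non-specific LTP-like gene, gene23965, fell from 333, 275 and 223 to 2.46, 0 and 6.9, with 0 in all libraries of the other lines. Among the 35 genes of the defensin and LTP list averaging 50 scaled counts or more, 7 were upregulated and 9 downregulated.

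**Figure D4:**
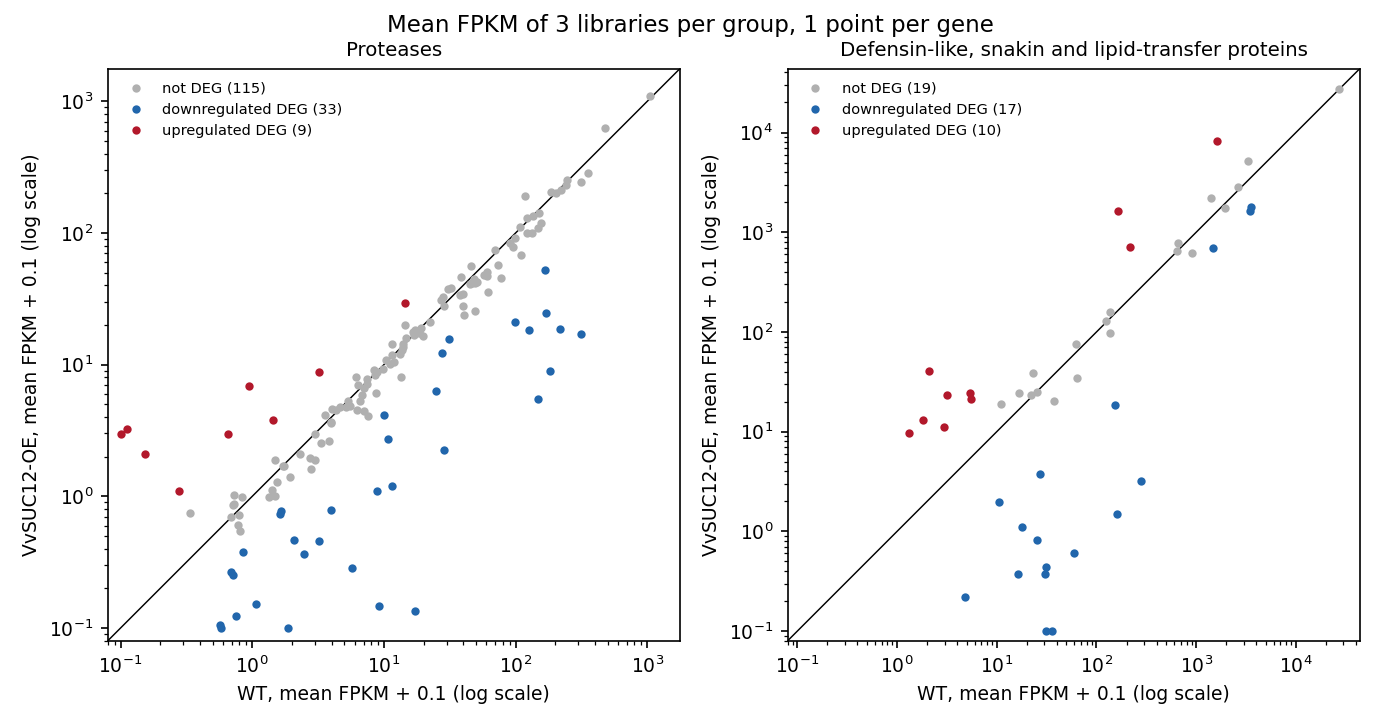
Mean FPKM + 0.1 of the 3 *VvSUC12*-OE libraries against that of the 3 WT libraries on log axes, for 157 protease genes (left) and 46 defensin-like, snakin and lipid-transfer protein genes (right), 1 point per gene. The diagonal marks equal levels. On the left 33 blue downregulated genes lie below the diagonal and 9 red upregulated genes above it, and on the right 17 lie below and 10 above.

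Pathogenesis-related proteins showed a run of osmotin genes upregulated together. Osmotins and thaumatin-like proteins (PR-5) permeabilize fungal membranes. Osmotin-like protein TPM-1, gene21033, read 103, 87 and 85.8 FPKM in *VvSUC12*-OE fruits against 4.99, 6.77 and 4.53 in the WT (log2FC 3.99). Its neighbours NP24 (gene21032) and OSML15 (gene21034) rose with a log2FC of 2.45 and 2.18, and the thaumatin-like gene gene21026 with 4.35, though reads of such similar copies may have been split. Compared with *VvSUC11*-OE fruits, TPM-1 and NP24 were lower, with a log2FC of -0.69 (mean 140.4 FPKM in that line) and -1.08 (mean 16.1), and OSML15 and gene21026 did not pass the FDR (0.29 and -0.32). Each was higher than in *VvSUC27*-OE fruits, with a log2FC of 1.98 for TPM-1, 1.48 for NP24, 1.29 for OSML15 and 2.38 for gene21026. Beta-1,3-glucanases cut callose and fungal walls. Among them, gene10361 rose from 0.568, 0.748 and 0.618 to 7.62, 7.31 and 6.78, whereas PR-N type gene27107 fell from 11, 11 and 8.21 to 0.0573, 0.173 and 0.407 and gene16518 was at least 49.8-fold lower. Over the 81 tested genes of the PR list 6 were upregulated and 10 downregulated, and 5 and 3 at a mean of 50 scaled counts or more. Disease resistance genes changed at about the background share, with 9 of 118 DEGs (7.63%), and receptor-like kinases had 15 up and 26 down among 351 (11.7%). With FPKM the receptor-like kinases had 6 up and 10 down and the disease resistance genes 1 and 2, and at a mean of 50 scaled counts or more the receptor-like kinases had 6 and 13 of 272.

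Transcription factors of the AP2 domain, the DNA-binding domain of ethylene response factors (ERF), CBF and RAV proteins, were downregulated more often than upregulated. Of 93 tested genes with this domain, 26 fell and 5 rose, 33.3% in all, with a median log2FC of -0.26, and 10 of the 26 had a mean under 50 scaled counts. RAV1-type gene9749 had 0.203, 0.205 and 0.0688 FPKM in *VvSUC12*-OE fruits against 8.98, 8.59 and 10.1 in the WT (log2FC -5.97). A pair of ERF109-like genes fell alike, gene24570 from 41.8, 39.8 and 36.1 to 4.17, 4.78 and 4.26 and gene3376 from 38.5, 38.6 and 40.2 to 4.08, 4.74 and 4.74. ERF017 (gene27997) read 17.6, 21.4 and 21.9 against 127, 125 and 121. CBF1, gene7109, known in Arabidopsis as an activator of cold-response genes, read 21.2, 20.6 and 21.3 against 79.2, 81.6 and 81.8. ERF4-like gene18340, of a class with a repressor motif, was the most abundant of those named here and fell from 464, 444 and 476 to 184, 188 and 196 (log2FC -1.39, SE 0.03). In contrast, PTI5 (gene5082), which binds the GCC box of defence genes, rose from 0.715, 0.868 and 0.578 to 10.6, 11.1 and 11.4, above its mean in *VvSUC11*-OE (3.13) and *VvSUC27*-OE fruits (1.46). ERF1B-like gene10200 rose from 7.02, 5.09 and 5.01 to 19.1, 19 and 23.6.

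NAC and WRKY factors fell more often than they rose. Of 35 NAC genes 7 were downregulated and 2 upregulated, and of 41 WRKY genes 9 and 1. NAC29, gene12427, of the family of senescence regulators, had 0.396, 0.482 and 0.601 FPKM in *VvSUC12*-OE libraries and 30, 29.8 and 32.9 in WT libraries, a log2FC of -5.92 (SE 0.16). Its mean in *VvSUC11*-OE fruits was 5.62 and in *VvSUC27*-OE fruits 1.18, both above *VvSUC12*-OE fruits (log2FC -3.43 and -1.19). A NAC29-like gene, gene9705, read 0.434, 0.0965 and 0.0965 against 9.42, 10.3 and 11.8. Genes annotated as NAC100, gene6083 and gene8952, fell by 3.10 and 2.17. Another gene annotated as NAC29, gene8342, moved the other way, from 6.82, 7.24 and 7.93 to 18.9, 21.3 and 19.3. WRKY factors bind W boxes in the promoters of defence and senescence genes. WRKY53 (gene19420) had 2.66, 3.07 and 3.76 against 17.8, 15 and 17.2, WRKY22-like gene23949 1.29, 1.45 and 1.84 against 8.27, 7.33 and 8.72, and WRKY1 (gene15850) 16.7, 16.5 and 19.1 against 42.8, 46.5 and 43.3. WRKY26 (gene15742) fell by 1.18. The single upregulated member, WRKY12 (gene1894), stood at a mean of 1.74 FPKM against 0.463.

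MADS-box factors set organ identity and ripening, and of 32 tested genes 6 were upregulated and 3 downregulated. AGL11-type genes are known from Arabidopsis and tomato for their role in ovules and seed coats. AGL11, gene15601, had 35.1, 35.9 and 34.7 FPKM in *VvSUC12*-OE libraries and 96.1, 90.1 and 95.1 in WT libraries (log2FC -1.47, SE 0.04), and TAGL11, gene26656, 16.5, 14.9 and 15.5 against 41.3, 38 and 36.9. In *VvSUC11*-OE and *VvSUC27*-OE fruits the mean of AGL11 was 14.2 and 18.2, and that of TAGL11 13.5 and 14.9. TDR4, gene15947, the tomato FRUITFULL homologue that acts in ripening, was not caught by the words of the list and rose from 19.4, 17.2 and 19.4 to 59.5, 64.3 and 63.5. MADS-RIN, gene12740, the ripening regulator, rose from 31.1, 28.6 and 32.7 to 64.1, 66.4 and 68.5 (log2FC 1.09), and the SOC1-like gene gene14794 from 0.729, 0.393 and 1.08 to 8.55, 8.46 and 8.67. TAGL1, gene18532, was not a DEG, with a mean of 122 against 109. Other families had 15 DEGs of 78 MYB (19.2%), 10 of 68 bHLH (14.7%), 14 of 88 homeobox (15.9%) and 22 of 249 zinc finger genes (8.84%). Over all tested genes the share was 8.6%, so the zinc finger genes were near the background. At a mean of 50 scaled counts or more, the MYB genes had 1 up and 3 down in place of 8 and 7. With FPKM in place of scaled counts, the bHLH genes had 2 up and 3 down in place of 2 and 8. Among these families, homeobox HDG1-like gene14822 had 14.1, 12.8 and 13.8 FPKM against 0.0252, 0.0706 and 0.0207, at least 212-fold higher, and averaged 0.0552 in *VvSUC11*-OE and 166 in *VvSUC27*-OE fruits. Homeobox HDG2-like gene27759 was at least 47.2-fold lower, bHLH protein A (gene22539) fell by 2.12, the Zm38-like MYB gene gene2131 rose by 1.21, the LOB domain gene gene8196 by 1.81, and the zinc-finger homeodomain gene gene12413 fell by 3.06. The zinc finger BED gene gene3962 was at least 42.3-fold higher and was also at 0 in all libraries of the other lines.

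Cytochrome P450 genes, the haem monooxygenases of flavonoid, terpenoid, hormone and cutin metabolism, were downregulated more often than upregulated. Of 139 tested genes with the domain, 37 fell and 9 rose (33.1%), and 20 of the 37 had a mean under 50 scaled counts. A cluster annotated as flavonoid 3'-monooxygenase-like, enzymes that hydroxylate the B ring, was at or near 0. Its first member, gene20902, was at 0 FPKM in each *VvSUC12*-OE library and 7.8, 11.2 and 5.34 in WT libraries, at least 85.1-fold lower. The bound was 70.1-fold for gene20906, 52.3-fold for gene20908, 36.6-fold for gene20904 and 10.2-fold for gene20901, and the means of all 5 were 0 in *VvSUC11*-OE and *VvSUC27*-OE fruits too. WT levels of these neighbours moved together, with replicate 2 highest and replicate 3 lowest. A flavonoid 3'-monooxygenase elsewhere, gene8898, rose from 5.82, 8.54 and 7.61 to 22.6, 20.6 and 21.1, whereas a putative flavonoid 3'5' hydroxylase, gene27227, fell by 3.67. CYP94A1-like gene22643, of a family of fatty acid hydroxylases, read 4.31, 4.56 and 5.67 against 35.5, 35.8 and 36.9, and CYP81E8 (gene11713) 0.792, 1.25 and 1.28 against 28.1, 24.2 and 18.4. CYP86B1-like gene25197, from the family that makes suberin and cutin monomers, was the most abundant of those named and read 34.1, 31.1 and 31 against 74.6, 64.7 and 67.1 (log2FC -1.13).

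Other enzymes of secondary metabolism shared this direction. The eggNOG class of secondary metabolites held 65 downregulated and 25 upregulated genes of 452 (19.9%, against 8.6% of all tested genes). Of these, 40 of the downregulated and 12 of the upregulated had a mean under 50 scaled counts. Of 180 glycosyltransferases 24 fell and 4 rose, of 52 terpenoid and carotenoid genes 8 and 1, and of 144 phenylpropanoid and flavonoid genes 20 and 8. At a mean of 50 scaled counts or more, these lists had 19 and 1, 5 and 0, and 10 and 6. A terpene synthase, gene15320, read 0.0313, 0 and 0.191 FPKM against 3.01, 4.13 and 2.9. (+)-Neomenthol dehydrogenase-like gene2123, a short-chain reductase, went the opposite way, from 0.169, 0.104 and 0 to 17.1, 18.1 and 16, at least 117-fold higher, and its mean was 42.7 in *VvSUC11*-OE and 1.79 in *VvSUC27*-OE fruits. Of 42 peroxidase genes, which cross-link phenolics in the wall, 10 fell and 5 rose (4 and 5 at a mean of 50 scaled counts or more). Peroxidase A2, gene25009, fell from 139, 119 and 109 to 48.5, 48.8 and 48.5, and peroxidase 5 (gene7876) by 4.04 on the log2 scale. Suberization-associated anionic peroxidase 1, gene5281, rose from 42.5, 40.9 and 44 to 104, 97.3 and 104. The gene annotated as "superoxidase dismutase", gene27211, fell from 358, 351 and 361 to 65.2, 61.6 and 68.7 (adjusted p = 8.64e-19, limma), and metallothionein-like protein type 2, gene16515, a metal-binding protein, rose from 598, 607 and 614 to 1609.6, 1622 and 1654.

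Genes of the cell wall and cuticle changed in both directions with more falls. Of 110 expansin, XTH and cellulose genes 16 fell and 6 rose, of 114 trichome birefringence-like (wall acetylation) and extensin genes 13 and 2, of 84 pectin genes 9 and 8 (3 and 5 at a mean of 50 scaled counts or more), and of 93 cuticle, wax and lipase genes 12 and 5. In this order the downregulated shares were 14.5%, 11.4%, 10.7% and 12.9%, against 5.3% of all tested genes. Pectinesterase 1, gene18846, which removes methyl groups from pectin, had 405, 429 and 435 FPKM against 0.77, 0.403 and 0.729, a log2FC of 9.40 (SE 0.15), and means of 1055 in *VvSUC11*-OE and 41.7 in *VvSUC27*-OE fruits. Conversely, a pectinesterase inhibitor-like gene newly assembled by the authors, newGene_228, read 0.193, 0.2 and 0.406 FPKM in *VvSUC12*-OE libraries and 79.1, 78.6 and 71.4 in WT libraries, at least 136-fold lower. The XTH gene gene26460, which cuts and rejoins xyloglucan, read 0.224, 0.0753 and 1.07 against 22.2, 20.3 and 17.3, and trichome birefringence-like 43 (gene18520) 0.619, 0.192 and 0.483 against 17.7, 18.8 and 13.3. Apyrase gene29626, an enzyme that hydrolyses nucleotides, fell from 11.2, 11.6 and 12.1 to 0.031, 0 and 0.0311. A kinesin-related gene of 125 kDa, gene21389, rose from 0.179, 0.149 and 0.275 to 2.1, 2.12 and 2.

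Cytokinin genes fell more often than they rose, with 13 of 70 downregulated and 2 upregulated, and 7 and 2 of 54 averaging 50 scaled counts or more. The downregulated share of the 70 was 18.6%, against 5.3% of all tested genes. Zeatin O-glucosyltransferases store cytokinins as inactive sugar conjugates. Such a gene, gene25116, had 0.242, 0.364 and 0.518 FPKM in *VvSUC12*-OE fruits against 8.08, 7.97 and 6.88 in the WT, and the more abundant zeatin O-xylosyltransferase-like gene gene17954 137, 137 and 132 against 270.1, 274 and 279. LOG3, gene21468, which frees active cytokinin from its riboside phosphate, fell from 9.75, 8.15 and 7.78 to 2.15, 1.76 and 2.31. Adenylate isopentenyltransferase 5, gene1516, the first step of cytokinin synthesis, rose from 1.2, 0.653 and 0.944 to 5.76, 4.52 and 5.4. The cytokinin dehydrogenase 7-like gene gene19958, which degrades cytokinin, was at least 12.4-fold lower.

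Gibberellin 2-oxidases, which inactivate gibberellins, were down in 4 genes and up in 1. Over the 30 tested gibberellin genes 4 fell and 2 rose, but with FPKM 1 fell and 1 rose. The most changed, gene18616, read 1.42, 1.74 and 1.33 FPKM against 11.4, 8.67 and 11.2 (log2FC -2.84, SE 0.17). Less changed were gene18610 (-1.44), gene13942 (-1.20) and gene18615 (-1.04), while the 2-beta-dioxygenase 1-like gene gene4809 rose by 2.52. ACC oxidase makes ethylene from ACC. Its gene gene5431 had 122, 119 and 117 against 27.1, 23.2 and 26.6, and gene4138 170.1, 162 and 162 against 61.1, 61.2 and 58.1, and in the other lines gene4138 averaged 411 in *VvSUC11*-OE and 166 in *VvSUC27*-OE fruits. Linoleate 9S-lipoxygenase A, gene19490, which oxygenates linoleic acid at carbon 9, rose from 7.11, 6.72 and 7.67 to 103, 100.5 and 103 (log2FC 3.83, SE 0.04, adjusted p = 2.09e-20, limma). Its level lay between the WT and *VvSUC11*-OE fruits (262). A second lipoxygenase gene, gene155, rose from 27.3, 29.6 and 30.9 to 63.5, 64.2 and 66.7, above both other lines.

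Transporter DEGs were mostly lower among nitrate, peptide and amino acid carriers (14 down, 4 up of 105, and 10 and 0 with FPKM). Among 83 ion and metal carriers 6 fell and 6 rose, with 4 to 5 falls and 6 to 8 rises when a library was left out, and 2 and 5 with FPKM. Of 41 sugar transporter genes, 4 fell and 2 rose (9.76% and 4.88%, against 5.3% and 3.31% of all tested genes). SWEET proteins let sugars diffuse across membranes. The SWEET gene N3, gene8361, had 68.4, 61.3 and 65.3 FPKM in *VvSUC12*-OE libraries and 13, 11.8 and 11.3 in WT libraries, a log2FC of 2.43 (SE 0.06). It was also higher than in *VvSUC11*-OE fruits (mean 29.8, log2FC 1.15) and *VvSUC27*-OE fruits (mean 3.52, log2FC 4.28). NEC1, gene22772, and the SWEET1-like gene gene11185 fell, the former from 12.7, 12 and 8.31 to 1.47, 0.649 and 1.31 and the latter by 2.52 on the log2 scale. Sugar transport protein 8-like gene15254, of the hexose carrier family, read 0.219, 0.355 and 0.248 against 5.26, 4.42 and 5.45, lower than in both other lines. Putative potassium transporter 12, gene12231, rose from 1.57, 0.871 and 0.863 to 9.63, 10.8 and 9.91, and the ABCG22-like gene gene11224 from 0.624, 0.289 and 0.371 to 2.41, 2.38 and 2.53. The cationic amino acid transporter gene gene25848 fell by 3.84.

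Some large gene groups had few DEGs but shifted together by less than the fold threshold. Photosynthesis genes were lower, with 61 of 71 below and 4 above the WT past the FDR (limma), against 39.5% of all tested genes in either direction, and a median log2FC of -0.47. Their summed FPKM was 20675 to 21666 in *VvSUC12*-OE and 28204 to 30218 in WT libraries. All but 1 of the 28 tested KEGG antenna protein genes, the chlorophyll-binding proteins that collect light, had a negative log2FC (median -0.58), and 27 passed the FDR. CAB3A, gene6772, read 1296, 1169.7 and 1226 FPKM against 1907, 1960.4 and 2099.9 (log2FC -0.75, SE 0.04), and CAB7, gene23590, 624, 632 and 656 against 841, 819 and 891. The exception was CAB4, gene18069, with 691, 702 and 723 against 607, 615 and 676, a log2FC of 0.07 and an adjusted p of 0.0822 (limma). The 5 DEGs among antenna proteins included 4 neighbouring copies of CAB1, such as gene4862 with 3.09, 2.08 and 4.3 against 19.2, 18.4 and 21.6, whose reads near-identical copies could share. Pigment synthesis genes were lower too, with 11 of 16 below and 3 above the WT past the FDR, among them glutamyl-tRNA reductase 1 (gene3190), the entry step of chlorophyll synthesis, at 7.45, 7.79 and 7.09 against 24.6, 26.7 and 24.7. Chlorophyllide a oxygenase gene8179, which makes chlorophyll b, was at 6.79, 7.54 and 8.31 in *VvSUC12*-OE libraries and 0, 0.0451 and 0.111 in WT libraries, at least 106-fold higher, and at a mean of 6.33 and 10.5 in the other lines.

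Histone and DNA replication genes shifted upward. Past the FDR, 50 of 72 were higher and 3 lower, with a median log2FC of 0.31, yet 0 were upregulated DEGs and 2 were downregulated DEGs. Histone H2A.1, gene2619, read 1221, 1259 and 1213 FPKM in *VvSUC12*-OE fruits against 899.9, 810.0 and 883 in the WT (log2FC 0.41, SE 0.03), and histone H4, gene16500, 1255, 1238 and 1138 against 916, 873 and 941. Both were also above their means in *VvSUC11*-OE fruits, 570.0 and 787. Of 179 cyclin and cell division genes, 82 were higher and 17 lower past the FDR, with a median of 0.20. Cyclin-dependent kinases regulatory subunit 1, gene27218, needed for the kinase at mitosis, had 266, 246 and 253 against 184, 188 and 183. Cyclin-B1-2, gene6232, shifted less (log2FC 0.13, adjusted p = 0.00574, limma). Ribosomal proteins had 144 of 300 genes higher and 40 lower past the FDR with a median of 0.12. Over all 18900 tested genes, 3433 were higher and 4027 lower past the FDR. These directions held when libraries were rescaled to equal totals, which moved the median of all genes to 0.04, with 54 histone and replication genes higher and 3 lower, 179 and 36 ribosomal genes, and 5 and 61 photosynthesis genes.

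**Figure D5:**
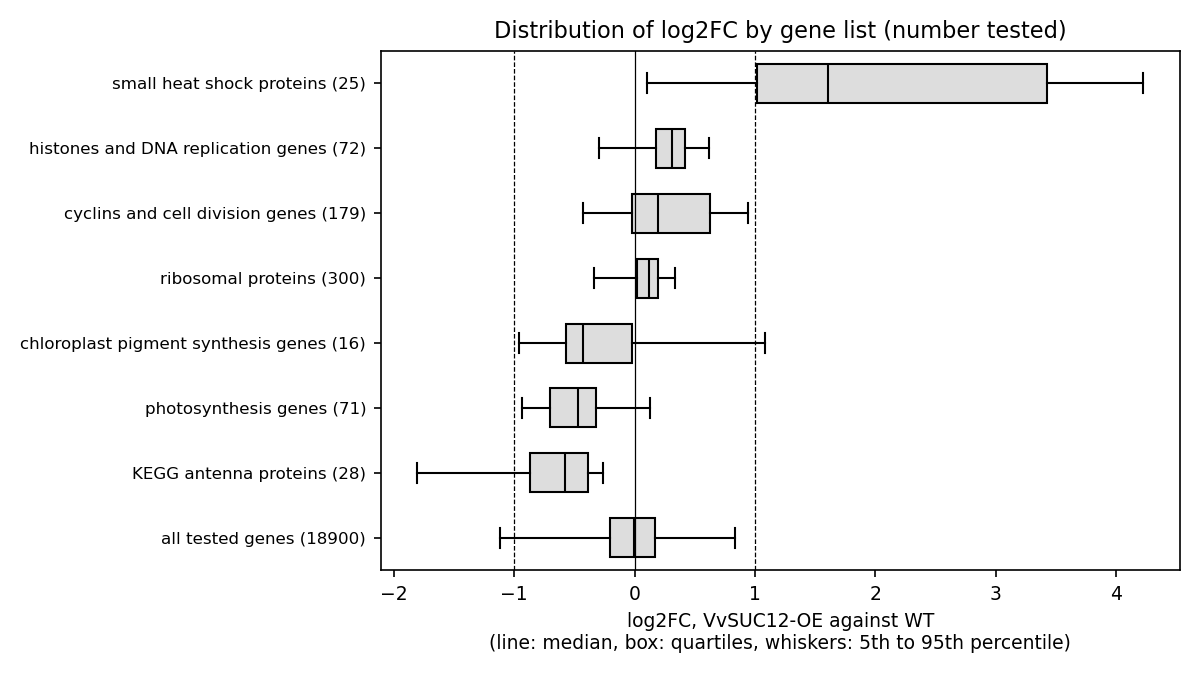
Distribution of the log2FC between *VvSUC12*-OE and WT fruits in 7 gene groups and over all 18900 tested genes. The line is the median, the box spans the quartiles, the whiskers reach from the 5th to the 95th percentile, and dashed lines mark 1 and -1. The median is 1.61 for small heat shock proteins, 0.31 for histone and replication genes, -0.47 for photosynthesis genes and -0.58 for antenna proteins, against -0.01 for all genes.

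Markers of tissues inside the fruit were examined beside these shifts. Genes annotated with seed storage and late embryogenesis summed to 1168 to 1255 FPKM in *VvSUC12*-OE and 975 to 1015 in WT libraries. Of the 68 genes 28 were tested, with 3 upregulated and 5 downregulated (28.6%, against 8.6% of all tested genes). At a mean of 50 scaled counts or more, 1 of 14 was upregulated and 1 downregulated. Of the 68, 22 were at 0 in all *VvSUC12*-OE libraries and 10 in all WT libraries. A member that fell, unlike the list sum, was the seed biotin-containing protein gene gene18305, from 1.92, 1.63 and 1.81 to 0.402, 0.6 and 0.606. Pollen and anther genes summed to 2476 to 2549 against 2234 to 2301 FPKM, with 1 DEG of 18 tested genes. Fruit and ovule regulators, the check of the labelled tissue, summed to 482 to 493 against 475 to 482 FPKM. Of 7 tested genes of 11, 1 was upregulated and 2 were downregulated (42.9%, against 8.6% of all tested genes). The similar sums therefore hide changes of members in both directions. The part of seed or green tissue amount in the differences above was not tested.

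Genes for which *VvSUC12*-OE fruits differed from the WT, from *VvSUC11*-OE and from *VvSUC27*-OE fruits in the same direction, each as a DEG, numbered 91 higher and 47 lower. For comparison, 10.2% of 18837 genes tested between *VvSUC12*-OE and *VvSUC11*-OE fruits were DEGs, and 6.8% of 18604 between *VvSUC12*-OE and *VvSUC27*-OE fruits. Glutathione transferase GST 23-like gene1621, of the enzymes that conjugate glutathione, had 113, 127 and 133 FPKM in *VvSUC12*-OE libraries and 9.18, 9.85 and 8.22 in WT libraries. Its means were 1.12 and 1.99 in *VvSUC11*-OE and *VvSUC27*-OE fruits, and the log2FC were 3.71, 6.78 and 5.90 against the WT and these lines. Non-symbiotic hemoglobin class 1, gene17169, which scavenges nitric oxide and is known to respond to low oxygen, read 111, 119 and 110.2 against 37, 36.2 and 30.1, with 14.4 and 16.6 in the other lines. A protein kinase gene newly assembled by the authors, newGene_1570, was at 11.5, 14.7 and 13.8 in *VvSUC12*-OE libraries and 0 in all WT libraries, at least 48.1-fold higher. Its means were 0.0347 and 0.0297 in *VvSUC11*-OE and *VvSUC27*-OE fruits, at most 1 scaled count in any library, so the same bound of 48.1-fold holds against each of them.

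Of the 47 genes lower than in all 3 other groups, isocitrate lyase, gene18222, of the glyoxylate cycle that turns lipid carbon into sugar precursors, had 23.7, 25.7 and 25.3 FPKM against 65.6, 63.3 and 68.5 in the WT, and means of 100.9 and 94.7 in *VvSUC11*-OE and *VvSUC27*-OE fruits. Proline dehydrogenase 2, gene6214, which degrades proline, read 1.33, 1.71 and 1.8 against 29.6, 31.3 and 30.7 (log2FC -4.25, SE 0.11), and asparagine synthetase, gene14381, which stores nitrogen as asparagine, 0.187, 0.281 and 0.212 against 6.18, 7.27 and 7.74. A carbonic anhydrase, gene4559, was at 0 in all *VvSUC12*-OE libraries and 4.85, 6.04 and 6.89 in the WT, at least 35.1-fold lower. An abundant gene among them was MLP-like protein 423, gene12246, of the major latex protein family, with 400.4, 416 and 397 against 1313, 1202.7 and 1149.7 and means of 2364 and 1473 in the other lines. Over all classes, amino acid metabolism of eggNOG had 37 downregulated and 9 upregulated genes of 439 (10.5%, against 8.6% of all tested genes). In the KEGG classes 7.11% of 211 genes for biosynthesis of amino acids and 4.74% of 232 genes of carbon metabolism were DEGs, below that background. These shares were not matched for level, and of all tested genes between 200 and 1000 scaled counts only 3.33% were DEGs.

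The 58 genes chosen by the rule for named genes, 21 up and 37 down, were drawn from the DEGs by the size of their change and their level. Of the 45 that could be tested against *VvSUC11*-OE fruits 32 differed, of the 45 against *VvSUC27*-OE fruits 21 differed, and 18 differed from both. The others had too few scaled counts in the libraries compared to be tested. Among these, gene4238, gene29626, newGene_228, gene20902 and gene20906 had means of at most 0.267 FPKM in each transgenic line. The counts of differing genes therefore leave out genes that were near 0 in every transgenic line. Among the most abundant downregulated genes were ARG2 (gene22835), named for its induction by indole-3-acetic acid, and the induced stolen tip protein TUB8-like gene gene14016. The first read 2419.8, 2360.1 and 2342 FPKM in *VvSUC12*-OE libraries and 4621, 4354 and 5369 in WT libraries, with means of 11212 in *VvSUC11*-OE and 1043 in *VvSUC27*-OE fruits. For the second the values were 1927, 1967 and 2035 and 4798, 4354 and 5086, and the means of the other lines 1481 and 1946. An F-box/FBD/LRR gene, gene12672, of the family that marks proteins for degradation, fell from 4.21, 4.09 and 4.01 to 0.042, 0.0844 and 0.121 in *VvSUC12*-OE fruits but averaged 12.9 in *VvSUC27*-OE fruits. CML19, gene27538, a calcium sensor, fell from 10.9, 11.5 and 9.64 to 0.638, 1.11 and 1.94.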

How the data were processed

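RNA of whole 5 DPA fruits was sequenced, with 3 libraries for each of the 4 groups named in the labels. The authors aligned the reads with TopHat2 to the tomato assembly SL2.50 and deposited FPKM made with cuffnorm, plus a value per library that was named a count. These are whole numbers with nearly equal totals in all libraries, which raw counts rarely have. How they were made is not given in the sources used here, so the deposited values were taken as a score (scaled count), and no count model was used. No genome of that assembly was used here, and no coordinates or sequences are printed. EBSeq columns in the deposited tables hold the authors' FDR and log2 fold changes and were left out.

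Genes reaching 10 scaled counts in 3 or more of the 6 libraries were tested with limma 3.58.1 (lmFit, eBayes with trend) in R 4.3.3 with the data.table package (version 1.17.8), on log2(scaled count + 1), and a DEG had an FDR under 0.01 and an absolute log2FC above 1. This understates the change of genes with low values. Where a group had at most 3 scaled counts in each library, the fold is a bound against 3 counts. Counting was done with pandas 2.3.3. Lists were made by words in the NR annotation, and classes from the eggNOG, KEGG, GO and Pfam columns. No list or class was tested as a set.

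The rule for named genes took, among DEGs with an informative annotation, the 6 largest rises and falls averaging 50 scaled counts or more with no overlap, the 4 most abundant in each direction, the most changed gene (same minimum) of each list with at least 5 DEGs in its main direction, and the 2 most abundant in each direction with at most 3 scaled counts throughout 1 group. It gave 58 genes. All other genes named were chosen after their values were seen, as members of their lists. Members and lists were chosen with earlier results of these data known. Alternatives changed the pseudocount, the filter, the scaling, the unit, the variance model, the block and the libraries.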

Additional observations from a re-analysis of the deposited data

How the results depend on the processing

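Requiring a mean of 50 scaled counts or more moved the number of DEGs from 1626 to 897 (354 up, 543 down), of which 893 were among the 1626. This setting tests only 16470 genes. The other alternatives left it within 1.5 times, from 1217 with FPKM to 1952 with no filter on low values, and leaving out each library in turn gave 1555 to 1583. Of 40 lists with at least 5 DEGs, the number of DEGs moved by over 1.5 times in 9 with FPKM and in 26 at a mean of 50 scaled counts. The main direction turned in 1 list with FPKM (disease resistance) and in 4 at that mean (MYB, pectin, peroxidases and PR proteins). Rescaling libraries to the same total gave 663 up and 948 down, with 58.8% down in place of 61.6%. The labels number the replicates alike in each group, but libraries of the same number did not deviate together (r = 0.0037, -0.047 and -0.057 across 16470 genes). These are deviations from group means, which cannot show whether libraries were handled together, and the main fit had no replicate block. A replicate block gave 1619 DEGs, 1602 of them shared. Of 870 values for the 58 genes of the naming rule under 15 alternatives, 867 kept their direction and call, 0 reversed, and 3 fell short of the threshold: with FPKM, LTP gene24836 (log2FC -0.97) and RPP13-like gene18271 (0.87), and without WT replicate 1, gene18271 (0.98). The 58 genes were chosen in these same libraries by the size of their change and their level, so this count does not speak for the other DEGs. The number of those genes that differ from *VvSUC11*-OE fruits was 24 to 33 and from *VvSUC27*-OE fruits 18 to 24. Changes of genes at or under 3 scaled counts in a group are limited by depth.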

Other observations

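Genes newly assembled by the authors were DEGs more often than reference genes. Of 900 tested, 108 were upregulated and 94 downregulated (22.4%), against 7.91% of 18000 reference genes. At a mean of under 50 scaled counts the shares were 32.2% and 29.8%, between 50 and 200 they were 20.5% and 13.3%, and between 200 and 1000 they were 9.15% and 3.21%. A polyprotein of retroelement type, newGene_501, read 18.7, 18.7 and 17.8 FPKM in *VvSUC12*-OE libraries and 2.95, 3.36 and 2.67 in WT libraries. The gag-pol gene newGene_53 fell from 2.69, 2.94 and 3.14 to 0.239, 0.264 and 0.482. Its FPKM means give an 8.91-fold fall, smaller than the log2FC of -4.29 in the scaled counts. The CLASSY 3-like gene newGene_2083, of a family that in Arabidopsis guides small RNA production for DNA methylation, read 4.66, 4.63 and 4.62 against 1, 0.688 and 0.824. Its mean was 1.08 in *VvSUC11*-OE and 0 in *VvSUC27*-OE fruits.

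DEGs of the same direction that followed each other in the order of gene numbers formed 94 runs, 29 up and 65 down. They held 199 of the 1424 reference DEGs. Numbers absent from the table were skipped, as in the run of gene30201, gene30205 and gene30208. How many runs would arise without clustering was not tested. In 9 runs there were at least 3 genes, and the longest, of 4, were the wound-induced proteinase inhibitors gene23057 to gene23060 and the CAB1 copies gene4860 to gene4863. Genes with the sulfotransferase domain, which transfer sulfate groups, were downregulated in 8 of 17 cases and upregulated in 0, and all 8 had a mean under 50 scaled counts. The sulfotransferase genes gene26619 and gene30208 were at 0 FPKM in all *VvSUC12*-OE libraries and passed the filter only through the WT. Of 13 genes with the domain DUF239, 6 were downregulated and 0 upregulated. Over all tested genes 5.3% were downregulated, and 28.3% of those with means between 10 and 50 scaled counts were DEGs.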
